A study of Mus musculus with 15 samples.

Results

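The beta-catenin destruction complex was followed through 9 genes that encode its enzymes, scaffolds, substrate and ubiquitin ligase receptors: Gsk3b, Csnk1a1, Axin1, Apc, Apc2, Amer1, Ctnnb1, Btrc and Fbxw11. They were chosen by name from the textbook complex and are 9 of the 22180 genes measured, each read from the array row that carries its symbol alone; each had 1 such row. Without a WNT signal the complex holds beta-catenin on the scaffolds AXIN1 and APC. Casein kinase 1 alpha phosphorylates beta-catenin there first, GSK-3 phosphorylates it next, and the ligase receptors then bind the phosphorylated protein and mark it for the proteasome. When the complex is lost, beta-catenin accumulates and switches on WNT target genes, of which Axin2, Lef1 and Nkd1 are textbook examples.

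RNA was measured on 15 Affymetrix Mouse Gene 2.1 ST arrays, 1 per library, in 3 groups of 5 replicates from C57BL/6 mice. In the libraries labelled DKO both Gsk-3 isoforms are described as deleted in cerebellar granule neuron progenitors, and the descriptions give no alleles. The libraries labelled Math1-Cre control carry Math1-Cre, described as deleting only Gsk-3 beta, and the libraries labelled no-Cre control are described as Gsk-3 intact. Both sets of control descriptions give a single altered Gsk3a allele (Gska+-), so no group here has unaltered Gsk3a in its description. Both also give a floxed Gsk3b (GskBff), except no-Cre replicate 5, whose description leaves Gsk3b out. Math1 is another name of Atoh1, a transcription factor of granule neuron progenitors, so that Cre does not act in every cell of the cerebellum. The tissue is labelled whole cerebellum and the design text adds a density gradient to enrich these progenitors. The age is postnatal day 1 in the sample characteristics and day 2 in the growth protocol. RNA integrity numbers were 7.5 or higher. Nothing in the labels says whether replicates shared a litter, and p-values refer to the spread among these libraries alone. With 5 arrays a group, the number of arrays sets the precision. In such bulk RNA, fewer cells of a type and less RNA per cell cannot be told apart.

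Values are log2 expression levels as deposited, and a difference of 1 on this scale is a doubling. Array medians lay at 5.48 to 5.60 in the libraries labelled DKO, 5.66 to 5.72 in Math1-Cre controls and 5.46 to 5.74 in no-Cre controls. Array spread (interquartile range) was 4.06 to 4.24 in the libraries labelled DKO, 4.31 to 4.36 in Math1-Cre and 4.00 to 4.40 in no-Cre controls, with no overlap between DKO and Math1-Cre libraries. The median of the olfactory and vomeronasal receptor genes, which stand for background, was 3.68 to 4.11 in DKO, 3.54 to 3.60 in Math1-Cre and 3.50 to 4.05 in no-Cre libraries. No-Cre 4 stood apart from the other no-Cre libraries at the narrow and high-background end of both measures. The part of array spread and background in the differences from Math1-Cre libraries was measured only through the fits with spread as a covariate. Each difference below comes from a limma fit of all 22180 genes with a mean per group, and is given with its standard error (SE). A gene is called where its p, adjusted by Benjamini-Hochberg over all genes, is under 0.05.

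Gsk3a, the other GSK-3 isoform, stands on a row shared with the transcript 9130221H12Rik and is therefore no member, but that row bears on the labels. It lay at 9.47, 8.22, 9.37, 7.89 and 8.27 in libraries labelled DKO 1 to 5, at 8.25, 8.03, 9.48, 9.50 and 9.51 in Math1-Cre 1 to 5 and at 9.42, 9.52, 9.59, 9.42 and 9.57 in no-Cre 1 to 5. The row went against the label in 4 libraries: DKO 1 and DKO 3 lay beside the controls, and Math1-Cre 1 and Math1-Cre 2 lay beside DKO 2, 4 and 5. Member differences are therefore given with all 15 libraries and also without these 4, in a fit of 11 libraries. That fit left libraries out by a measured value. For every gene its p-values, intervals and counts of calls are therefore no plain test of the label. The levels are also described, with no test, in the 5 libraries with a Gsk3a row below 9.0 (DKO 2, 4 and 5 and Math1-Cre 1 and 2) and in the other 10, since a measured value defines that split.

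The promoters of Gsk3b and Ctnnb1 are shown because these genes stood at 10.59 or higher in every library whatever the Gsk3a row, and that of Axin2 because this WNT target had no overlap between libraries with a low Gsk3a row and the others. Axin2 encodes a scaffold related to AXIN1. Each line gives the last 120 bases before an annotated RefSeq transcript start (GRCm38.p6), with capitals marking the GC box letters GGGCGG or their reverse complement CCGCCC.
Axin2 (chr11:108920229-108920348, plus strand): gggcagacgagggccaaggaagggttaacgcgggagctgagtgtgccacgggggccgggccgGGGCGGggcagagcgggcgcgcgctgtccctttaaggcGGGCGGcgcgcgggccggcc
Gsk3b (chr16:38088881-38089000, plus strand): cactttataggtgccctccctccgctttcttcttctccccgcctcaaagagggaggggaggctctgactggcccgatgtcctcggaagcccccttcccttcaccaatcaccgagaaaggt
Ctnnb1 (chr9:120933280-120933399, plus strand): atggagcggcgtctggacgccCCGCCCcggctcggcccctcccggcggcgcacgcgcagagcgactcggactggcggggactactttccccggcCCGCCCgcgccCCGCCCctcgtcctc
Over the 250 bases before the start, the Axin2 window was 69.2% G or C, the Gsk3b window 62.0% and this Ctnnb1 window 74.8%, beside a median of 52.4% over all 32851 windows of the table. The Axin2 window held 2 GC boxes, this Ctnnb1 window 3 and the Gsk3b window none. The WNT effector motif of TCF/LEF factors, searched on both strands as CTTTGAA or CTTTGAT, which do not overlap with the GC box, was in none of these windows. Of the members, 4 had windows in the table (Gsk3b, Ctnnb1, Apc2 and Fbxw11). None of their 8 windows held the TCF/LEF letters, which 7.48% of all windows held, and 3 held a GC box, which 32.7% of all windows held.

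No destruction complex gene passed the test in any comparison, with 15 libraries or with 11. In DKO minus no-Cre, 0 of 9 members were called, beside 0.0721% of all genes. The differences ran between -0.29 and 0.03, with 7 of 9 below 0, beside 54.1% of all genes. Their median was -0.10 and the median over all genes -0.02. Unadjusted, 2 of 9 members had a limma p under 0.05 (Axin1 and Apc), beside 17.4% of all genes. In DKO minus Math1-Cre, 0 of 9 were called, beside 0.55% of all genes. All 9 differences were below 0, beside 60.7% of all genes. They ran between -0.36 and -0.001, with a median of -0.10 and a median over all genes of -0.05. Here 1 of 9, Axin1, had an unadjusted limma p under 0.05, beside 23.0% of all genes. The members' median thus lay below 0 on the same side as the gene median, and their share of low p-values was near the background in DKO minus no-Cre and under it in DKO minus Math1-Cre. After centring each array on its median, the median over all genes became 0.09 in both DKO comparisons, and 4 of 9 members in DKO minus no-Cre and 2 of 9 in DKO minus Math1-Cre were below 0. Both DKO comparisons share the DKO libraries. In Math1-Cre minus no-Cre, 0 of 9 members and 0.0% of all genes were called, with unadjusted limma p under 0.05 for 0 of 9 members and 3.23% of all genes.

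With the 11 libraries, 0 of 9 members were called in DKO minus no-Cre, beside 1.08% of all genes, and 0 of 9 in DKO minus Math1-Cre, beside 0.541%. In Math1-Cre minus no-Cre with 11 libraries 0 of 9 members and 0.0% of all genes were called, with unadjusted limma p under 0.05 for 0 of 9 members and 2.2% of all genes. For the DKO comparisons, unadjusted, 1 of 9 (Apc in both comparisons) had a limma p under 0.05, beside 12.7% of all genes in DKO minus no-Cre and 15.9% in DKO minus Math1-Cre. The precision of these non-calls was a 95% interval of 0.12 to 0.23 on either side of a member's difference with 15 libraries, and of 0.16 to 0.30 with 11. No member's 95% interval in the DKO comparisons reached further than -0.59 or 0.22. Each member's interval thus excluded a doubling and its inverse between the labelled groups in bulk RNA, which does not show that the groups were alike. Changes within the cells where Cre acts were not measured apart, so their size is not bounded by these intervals.

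**Figure D1:**
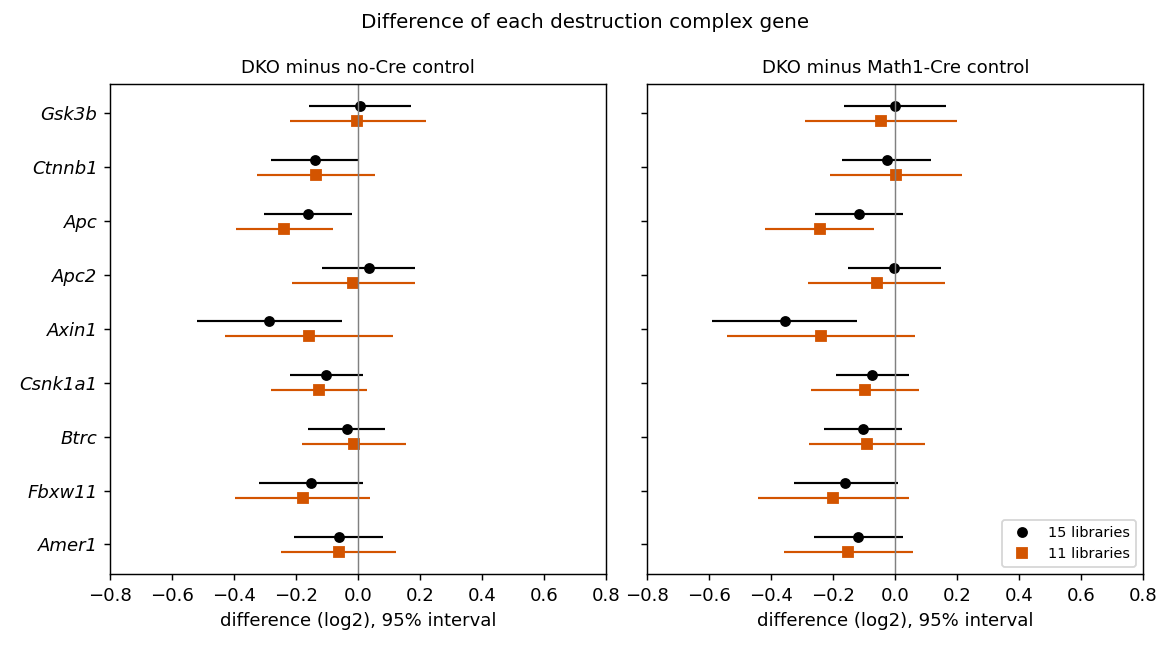
Difference of each destruction complex gene (log2) in DKO minus no-Cre (left) and DKO minus Math1-Cre (right), with 95% intervals from limma; black circles are the fit of 15 libraries and orange squares that of 11. Most intervals cross 0, the exceptions being Axin1 with 15 libraries and Apc in both fits of DKO minus no-Cre and with 11 libraries in DKO minus Math1-Cre, and none passed the adjusted test.

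Of the 2 kinases, Gsk3b encodes GSK-3 beta itself. It lay at 10.77, 10.98, 10.82, 10.59 and 10.74 in libraries labelled DKO 1 to 5, at 10.68, 10.77, 10.76, 10.77 and 10.93 in Math1-Cre 1 to 5 and at 10.84, 10.77, 10.80, 10.61 and 10.84 in no-Cre 1 to 5. The 3 groups overlapped fully, and the DKO libraries held both the highest and the lowest level. DKO minus no-Cre was 0.01 ± 0.08 (SE; 95% interval -0.16 to 0.17, limma adjusted p = 0.974), and -0.002 (-0.22 to 0.22, adjusted p = 0.996) with 11 libraries. Whether the probes of this row lie in the floxed exon was not examined, so its level was not used as a check of the deletion. Csnk1a1, which encodes the priming kinase casein kinase 1 alpha, lay at 9.63, 9.70, 9.77, 9.63 and 9.60 in DKO, at 9.72, 9.76, 9.72, 9.78 and 9.71 in Math1-Cre and at 9.78, 9.84, 9.73, 9.70 and 9.80 in no-Cre libraries. DKO 1, 4 and 5 lay below every control library, DKO 2 was level with the lowest of them (no-Cre 4), and DKO 3 lay among them. The difference, DKO minus no-Cre, was -0.10 ± 0.06 (SE; 95% interval -0.22 to 0.02, limma adjusted p = 0.354), and -0.12 (adjusted p = 0.49) with 11 libraries.

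Axin1 encodes the scaffold whose amount is usually taken as limiting for the complex. Its levels were 7.35, 7.29, 7.27, 7.89 and 7.71 in DKO 1 to 5, 7.77, 7.92, 7.79, 7.77 and 8.06 in Math1-Cre 1 to 5 and 7.77, 7.75, 7.77, 7.85 and 7.82 in no-Cre 1 to 5. DKO 1, 2 and 3 lay below the other 12 libraries, while DKO 4 and 5 lay among or just below the controls. The low Axin1 levels did not follow the Gsk3a row: DKO 2 had a low Gsk3a row, DKO 1 and 3 had one at control level, and DKO 4, with the lowest Gsk3a row of all, had the highest Axin1 level of its group. DKO minus no-Cre was -0.29 ± 0.11 (SE; 95% interval -0.52 to -0.05, limma adjusted p = 0.207), and DKO minus Math1-Cre was -0.36 ± 0.11 (-0.59 to -0.12, adjusted p = 0.0983). With array spread as a covariate the difference from Math1-Cre was -0.42 (adjusted p = 0.459). Without DKO 1, DKO 3, Math1-Cre 1 and Math1-Cre 2 these became -0.16 (adjusted p = 0.626) and -0.24 (adjusted p = 0.405). Over all settings tried, the smallest limma adjusted p of Axin1 was 0.0572, in DKO minus Math1-Cre without DKO 4. Axin1 had the widest range of the members over the libraries, 0.79, and 67.9% of all genes had a narrower one.

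Apc encodes the large scaffold that is a tumour suppressor of the colon. It lay at 10.47, 10.24, 10.49, 10.24 and 10.39 in DKO 1 to 5, at 10.42, 10.39, 10.58, 10.52 and 10.50 in Math1-Cre 1 to 5 and at 10.56, 10.53, 10.55, 10.47 and 10.52 in no-Cre 1 to 5. By label the groups overlapped, and the 3 lowest DKO libraries were DKO 2, 4 and 5. DKO minus no-Cre was -0.16 ± 0.07 (SE; 95% interval -0.30 to -0.02, limma adjusted p = 0.228). DKO minus Math1-Cre was -0.12 ± 0.07 (-0.26 to 0.02, limma adjusted p = 0.3). With 11 libraries these were -0.24 ± 0.07 (-0.40 to -0.08, adjusted p = 0.182) and -0.24 ± 0.08 (-0.42 to -0.07, adjusted p = 0.209). Apc itself separated by the Gsk3a row, by which that fit left libraries out, so these intervals and p-values are no plain test of the label. After median centring, DKO minus no-Cre was -0.06 with 15 libraries and -0.14 with 11. DKO minus Math1-Cre was then 0.02 and -0.10. Math1-Cre minus no-Cre was -0.05 ± 0.07 with 15 libraries and 0.01 ± 0.07 with 11, so that the 3 kept Math1-Cre libraries lay level with the no-Cre ones.

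Its paralog Apc2, a form of APC found mostly in neurons, lay at 9.64, 9.46, 9.64, 9.45 and 9.65 in DKO, at 9.55, 9.57, 9.48, 9.52 and 9.74 in Math1-Cre and at 9.55, 9.54, 9.43, 9.65 and 9.50 in no-Cre libraries. The groups overlapped throughout, and the highest level was in Math1-Cre 5. Between DKO and no-Cre libraries the difference was 0.03 ± 0.07 (SE; 95% interval -0.12 to 0.18, limma adjusted p = 0.827), and -0.01 (adjusted p = 0.962) with 11 libraries. Amer1, also called WTX, encodes a membrane-bound protein that binds APC. It lay at 8.19, 8.26, 8.38, 8.23 and 8.37 in DKO, at 8.35, 8.35, 8.45, 8.56 and 8.30 in Math1-Cre and at 8.46, 8.35, 8.35, 8.25 and 8.32 in no-Cre libraries. The highest level was in Math1-Cre 4 and the lowest in DKO 1, and the groups overlapped. For Amer1, DKO minus no-Cre was -0.06 ± 0.07 (SE; 95% interval -0.21 to 0.08, limma adjusted p = 0.656), and again -0.06 (adjusted p = 0.799) with 11 libraries.

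Ctnnb1 encodes beta-catenin, the substrate. It lay at 10.75, 10.83, 10.88, 10.80 and 10.84 in DKO 1 to 5, at 10.87, 10.90, 10.77, 10.80 and 10.89 in Math1-Cre 1 to 5 and at 10.98, 10.94, 10.77, 11.14 and 10.96 in no-Cre 1 to 5. The highest value was no-Cre 4, and no-Cre 3 lay below most DKO libraries. DKO minus no-Cre was -0.14 ± 0.07 (SE; 95% interval -0.28 to 0.004, limma adjusted p = 0.298), and DKO minus Math1-Cre was -0.03 ± 0.07 (-0.17 to 0.12, adjusted p = 0.821). With 11 libraries these were -0.14 (limma adjusted p = 0.544) and 0.001 (adjusted p = 0.995). In the 5 libraries with a low Gsk3a row Ctnnb1 ran from 10.80 to 10.90, inside the range of 10.75 to 11.14 in the other 10. Arrays measure RNA, and the regulated step of the complex is the stability of the beta-catenin protein, which was not measured.

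Btrc and Fbxw11 encode beta-TrCP1 and beta-TrCP2, the F-box receptors of the SCF ubiquitin ligase. Btrc lay at 10.34, 10.46, 10.28, 10.32 and 10.33 in DKO, at 10.44, 10.43, 10.52, 10.48 and 10.39 in Math1-Cre and at 10.46, 10.27, 10.41, 10.38 and 10.39 in no-Cre libraries. DKO 2 lay among the highest and no-Cre 2 lowest. For Btrc, DKO minus no-Cre was -0.04 ± 0.06 (SE; 95% interval -0.16 to 0.09, limma adjusted p = 0.769), and -0.01 (adjusted p = 0.961) with 11 libraries. Fbxw11 lay at 9.98, 9.97, 10.19, 10.06 and 10.03 in DKO, at 10.18, 10.19, 10.13, 10.14 and 10.40 in Math1-Cre and at 10.37, 10.22, 10.25, 9.98 and 10.19 in no-Cre libraries. Of the DKO libraries 4 lay below every Math1-Cre library, but no-Cre 4 lay with them. DKO minus Math1-Cre was -0.16 ± 0.08 (SE; 95% interval -0.33 to 0.01, limma adjusted p = 0.235), and DKO minus no-Cre was -0.15 ± 0.08 (-0.32 to 0.01, adjusted p = 0.328). With 11 libraries these were -0.20 (limma adjusted p = 0.393) and -0.18 (adjusted p = 0.482).

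**Figure D2:**
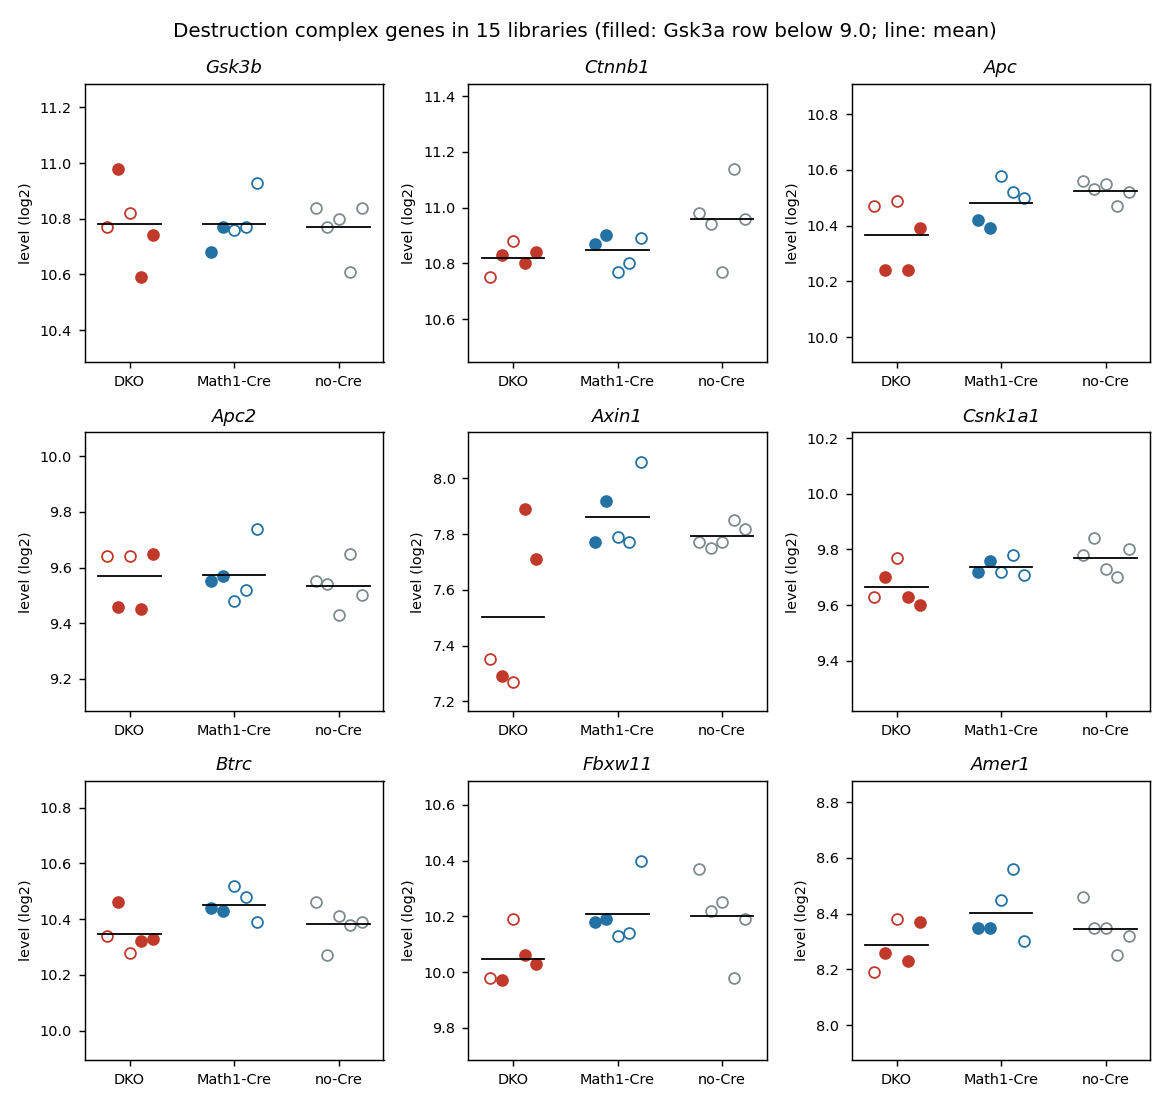
Log2 level of each of the 9 destruction complex genes in the 15 libraries, with DKO left, Math1-Cre control in the middle and no-Cre control right; replicates run 1 to 5 from left to right, filled points have a Gsk3a row below 9.0, and lines are group means. Every y axis spans the same width; Axin1 is low in DKO 1, 2 and 3, and in Apc alone all filled points lie below all open ones.

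Sorted by the Gsk3a row in place of the label, Apc was the 1 member of 9 whose levels did not overlap. Apc ran from 10.24 to 10.42, with a median of 10.39, in the 5 libraries with a low Gsk3a row, and from 10.47 to 10.58, with a median of 10.52, in the other 10. The gap between the sets was 0.05. Of all genes, 0.843% lay entirely lower in the 5 libraries and 0.663% entirely higher. The separation of Apc held after quantile normalization, with the 5 libraries at 10.44 or lower and the other 10 at 10.46 or higher. It was gone after centring arrays on their medians, where the 5 libraries reached 10.47 and the lowest of the other 10 was 10.41, and then 0 of 9 members separated.

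The other 8 members overlapped. Fbxw11, for example, had a median of 10.06 in the libraries with a low Gsk3a row and 10.19 in the others, and Axin1 had 7.77 in both sets. The median difference over the members was -0.05, beside -0.01 over all genes. For granule neuron progenitor markers, the mean level was taken over the 7 of 8 listed genes that were measured. Per library it was 8.05 to 8.24 in the 5 libraries and 8.32 to 8.74 in the other 10, without overlap. This mean was not recomputed after quantile normalization or median centring. Of these 7 genes 1, Mycn, lay entirely lower in the 5 libraries by itself (named after its value was seen), beside 0.843% of all genes. The others overlapped. How often a mean of 7 genes separates in this way was not examined. Atoh1 is the gene for which Math1-Cre is named. It was at 8.54, 7.81, 8.57, 8.57 and 8.65 in DKO 1 to 5, 8.34, 8.03, 8.95, 8.95 and 9.09 in Math1-Cre 1 to 5 and 9.22, 9.31, 8.94, 9.24 and 8.99 in no-Cre 1 to 5. By the Gsk3a row its levels overlapped. DKO minus no-Cre was -0.71 ± 0.20 with 15 libraries (limma adjusted p = 0.116) and -0.80 ± 0.17 with 11 (adjusted p = 0.0495), a call lost in 12 of 14 other settings of the fit, with adjusted p up to 0.129. The 11-library fit left libraries out by the Gsk3a row, by which the mean of these markers also separated. Its p is therefore no plain test of the label. The part of these markers in the level of Apc was not tested. Mean levels of the marker lists of Purkinje cells, GABAergic interneurons, astrocytes, oligodendrocyte lineage, microglia, endothelium, pericytes and hindbrain overlapped between both sets.

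**Figure D3:**
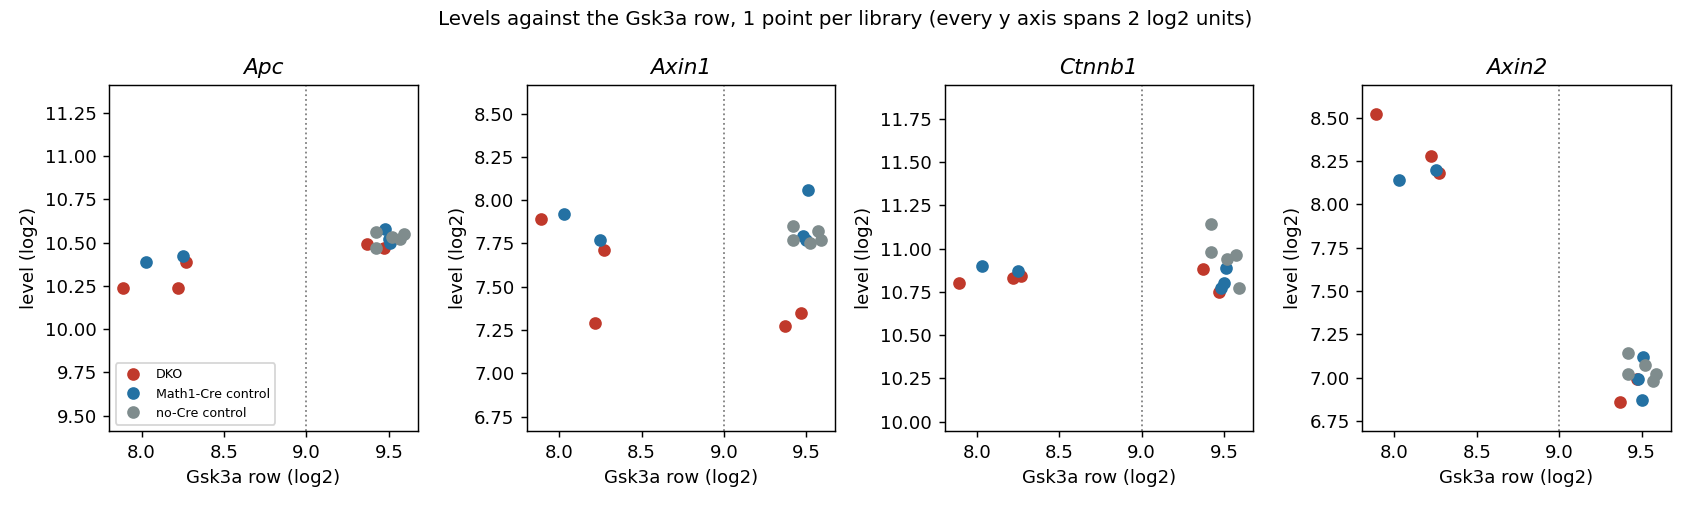
Log2 level of Apc, Axin1, Ctnnb1 and Axin2 against the log2 level of the Gsk3a row, 1 point per library, coloured by label; the dotted line is at 9.0. Axin2 falls into separate clusters at 8.14 or higher and 7.14 or lower, Apc is split by a gap of 0.05, and Axin1 and Ctnnb1 overlap.

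Axin2, the feedback paralog of Axin1, did not overlap between the libraries with a low Gsk3a row and the others. It lay at 6.99, 8.28, 6.86, 8.52 and 8.18 in libraries labelled DKO 1 to 5, at 8.20, 8.14, 6.99, 6.87 and 7.12 in Math1-Cre 1 to 5 and at 7.14, 7.07, 7.02, 7.02 and 6.98 in no-Cre 1 to 5. All 5 libraries with a low Gsk3a row stood above the other 10, with a gap of 1.00. A dimmer second row of Axin2 also had no overlap, at 4.29 to 4.84 against 3.98 to 4.28. The sets nearly touched there, at 4.294 and 4.283. That row lay near the background of olfactory and vomeronasal receptor genes, whose medians ran from 3.50 to 4.11. With 15 libraries DKO minus no-Cre was 0.72 ± 0.33 (limma adjusted p = 0.273). The 11-library fit is no test of Axin2 or of the other WNT genes, because the split by which the 4 libraries were left out was first noticed in them, so their levels by the Gsk3a row are given as a description.

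Of the WNT feedback and target genes, 9 of 10 listed were measured, and none was called with 15 libraries. Of all genes, 0.663% lay entirely higher in the 5 libraries with a low Gsk3a row than in the other 10. Of the 9 measured target genes, whose list was written with earlier results of these data known, 7 did so. Besides Axin2 these were Wif1 and Notum, secreted WNT inhibitors, the transcription factor genes Lef1 and Sp5, the inhibitor Nkd1, and Znrf3, a ligase that removes WNT receptors. Wif1 ran from 9.36 to 9.81 in the libraries with a low Gsk3a row and from 5.48 to 6.28 in the others. Nkd1 ran from 9.67 to 10.08 in the low libraries and from 8.44 to 9.19 in the others, and Znrf3 from 8.63 to 8.76 and from 7.89 to 8.22. The remaining genes were Rnf43, with medians of 5.03 in the low libraries and 4.64 in the others, and Lgr5, an R-spondin receptor gene, with medians of 6.48 and 6.91, and both overlapped. Axin1, beside its paralog Axin2, had 7.29 to 7.92 in the low libraries and 7.27 to 8.06 in the others.

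The wider machinery held 59 measured genes outside the members, Axin2 and the target list. None of the 59 was called in either DKO comparison with 11 libraries, beside 1.08% of all genes against no-Cre and 0.541% against Math1-Cre, and none separated by the Gsk3a row, beside 0.843% of all genes lower and 0.663% higher. At such shares a count of 0 is near the background. With 15 libraries 0 were called in DKO minus no-Cre and 1 in DKO minus Math1-Cre. That gene was Ppp2cb, a catalytic subunit of the phosphatase PP2A, at 10.36, 10.43, 10.37, 10.45 and 10.51 in DKO and 10.86, 10.88, 10.63, 10.79 and 10.74 in Math1-Cre libraries. All DKO libraries lay below all Math1-Cre ones, with a difference of -0.36 ± 0.07 (limma adjusted p = 0.0452). Array spread divides the same groups without overlap, 4.06 to 4.24 in DKO and 4.31 to 4.36 in Math1-Cre libraries, and with it as a covariate the difference was -0.29 (adjusted p = 0.453). The call was lost in 18 of 24 other settings, with adjusted p up to 0.453, and with 11 libraries the difference was -0.26 (adjusted p = 0.245).

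None of the other lists held a call, nor did Amer2, Amer3 and Jup, the other listed paralogs. Among other casein kinases, with 6 of 8 listed genes measured, the largest difference in DKO minus no-Cre with 11 libraries was that of Csnk2a1, a catalytic subunit of casein kinase 2, at -0.33 ± 0.09 (limma adjusted p = 0.126). Among the SCF ligase core and cofactors, with 4 of 6 measured, it was Skp1, the adaptor that binds F-box proteins, at -0.21 ± 0.08 (adjusted p = 0.312). Cacybp led the 8 genes for turnover of AXIN and beta-catenin outside SCF, at -0.18 (adjusted p = 0.685). Frat1, whose protein binds GSK-3 away from AXIN, led the 9 signalosome and GSK-3 binding genes, at -0.61 ± 0.19 (adjusted p = 0.203). Pygo2, a nuclear cofactor of beta-catenin, led its 13 genes at -0.28 (adjusted p = 0.342), and Cdh1, the gene of E-cadherin, led the 7 cadherin and catenin genes at 0.96 ± 0.48 (adjusted p = 0.433).

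**Figure D4:**
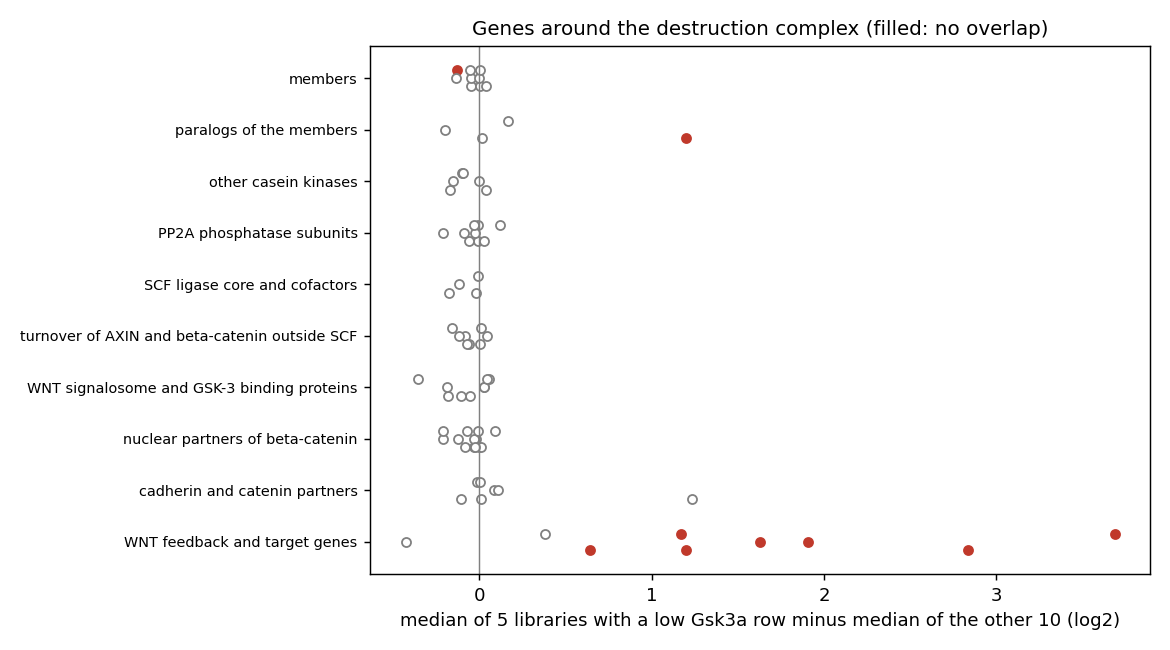
Median log2 level in the 5 libraries with a low Gsk3a row minus the median in the other 10, for each measured gene of the 10 lists, 1 point per gene; red filled points are genes whose levels do not overlap between both sets, with no test. The filled points are Axin2, which stands in 2 lists, 6 further WNT target genes between 0.64 and 3.69, and Apc at -0.13.

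The members other than Axin1 each had a narrower range over the libraries than the median of all genes. The members' ranges over all 15 ran from 0.24 to 0.79 with a median of 0.37, beside a median of 0.63 over all genes. The members lay above the array medians in every library, and genes of like level were not compared apart. Csnk1a1 varied least, with 1.12% of all genes having a narrower range, and 7.73% had a range narrower than that of Apc. Over the 15 libraries, among 11089 genes of above-median level, the genes whose levels ran most like Gsk3b were Tgfbr1 (Pearson r = 0.90, Spearman rho = 0.81), Tbp (r = 0.88, rho = 0.84) and Pelp1 (r = 0.87, rho = 0.69). For Ctnnb1 they were Zfp24 (r = 0.81, rho = 0.87), Fam181b (r = 0.76, rho = 0.30) and Snx17 (r = 0.75, rho = 0.76). These are descriptions over libraries that share each array's scale, without a test, and were picked as the highest of all genes compared.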

How the data were processed

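RNA from 15 libraries (5 per group) had been hybridised to Affymetrix Mouse Gene 2.1 ST arrays. The deposited values are log2 expression, 1 per row and array; RMA, Partek 6.6 and mm9 are named, per the submitters' processing notes, as what the authors used. How these steps were ordered and set is not given in the sources used here. RMA normalizes probes before it summarizes them, and the arrays' medians still differ, so scalings were tried. The total of 41345 rows held 23521 with 1 gene symbol in the platform annotation, 1814 with several and 16010 with none. The highest-mean row stood for each gene (1082 had several), which left 22180 genes; 23328 rows matched the gene table of GRCm38.p6, and 0 were renamed. Promoters are RefSeq sequences of that table's build. All 9 members lay above the 30th percentile of mean level.

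One limma 3.58.1 model (R 4.3.3; lmFit and eBayes, a mean per group, 12 residual degrees of freedom, two-sided, Benjamini-Hochberg over all genes) gave each comparison. The fit without 4 libraries had 8 degrees of freedom and was repeated without each of its libraries and under the scalings, as alternatives chosen after seeing the data. The fitting was tested on simulated data. The other settings were a filter on low values, quantile normalization, median centring, eBayes with trend and robust moderation, a block for replicate number, the code shared by replicate-5 libraries (cg1724) as a covariate, array spread as a covariate, the mean of all rows of a gene, and leaving out each library. Same-numbered libraries deviated together in 6 of 15 pairs (r over 0.1; -0.30 to 0.30), so the numbers were not taken to pair samples.

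The members, lists and rules were chosen with earlier results of these data known. The genes named are the members, the Gsk3a row, called genes of each list (up to 6, by size) or else the one with the largest difference, and the 3 genes most correlated with Gsk3b and Ctnnb1. Skp1, Csnk2a1 and other leading genes of lists follow that rule; Atoh1, Mycn, Lgr5, Rnf43 and the second Axin2 row were named after their values were seen. Figures were drawn with Python 3.11.15 and matplotlib 3.10.9.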

Additional observations from a re-analysis of the deposited data

Results flagged for a closer look

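Fbxw11 in the library labelled Math1-Cre 5 stood at 10.4, apart from the other 4 Math1-Cre libraries at 10.13 to 10.19. Its gap to the nearest of them was 0.763 of the group's range, past Dixon's 95% critical value for 5 samples. Of 27 groups of member levels examined, 1 stood out in this way, and chance alone marks about 1 in 20 groups.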

How the results depend on the processing

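No member passed the limma test in any of the 648 recomputed differences, where the smallest adjusted p was 0.0572, and 605 of the 648 kept their direction. The other 43 reversed, and none of these was called. The cause was not tested. The count of kept directions was in part fixed in advance. A member's difference cannot change with the low-value filter, trend and robust moderation, the replicate block or the cg1724 code. The mean of all rows cannot change it either, since each member had 1 row. Nor can leaving out a library of the group outside the comparison. For DKO minus no-Cre the reversed values were -0.002 for Gsk3b and -0.015 for Apc2 with 11 libraries, -0.021 for Apc2 with array spread as a covariate, 0.015 for Btrc and 0.007 for Amer1 after quantile normalization, and 0.001 for Csnk1a1, 0.066 for Btrc and 0.041 for Amer1 after centring. For DKO minus Math1-Cre they were 0.075 (Gsk3b), 0.046 (Ctnnb1), 0.077 (Apc2) and 0.003 (Csnk1a1) after quantile normalization, 0.137 (Gsk3b), 0.109 (Ctnnb1), 0.02 (Apc), 0.134 (Apc2), 0.064 (Csnk1a1), 0.033 (Btrc) and 0.018 (Amer1) after centring, 0.114 for Gsk3b with array spread and 0.001 for Ctnnb1 with 11 libraries. For Math1-Cre minus no-Cre they were -0.016 (Gsk3b) and -0.023 (Fbxw11) after quantile normalization, -0.027 (Gsk3b) and -0.026 (Fbxw11) after centring, -0.02 (Gsk3b) and -0.011 (Fbxw11) with array spread, and 0.006 for Apc with 11 libraries. Leaving out each library in turn gave -0.045 to 0.054 for Gsk3b in DKO minus no-Cre, -0.052 to 0.046 for Gsk3b and -0.027 to 0.037 for Apc2 in DKO minus Math1-Cre, and -0.033 to 0.032 for Gsk3b, -0.003 to 0.067 for Apc2 and -0.047 to 0.05 for Fbxw11 in Math1-Cre minus no-Cre. Counts over all genes moved more. The 16 genes called in DKO minus no-Cre became 0 after quantile normalization, 6 after centring, 33 with trend and robust moderation, 7 with the cg1724 code, 0 with array spread, 239 with 11 libraries, and 0 (without DKO 3 or no-Cre 1, 2 or 3) to 1546 (without no-Cre 4) with a library left out; the count was 191 without DKO 5, 32 without DKO 4, 9 without DKO 2, 4 without no-Cre 5 and 6 to 8 without Math1-Cre 1, 2, 3 or 4. The 122 in DKO minus Math1-Cre became 20 after quantile normalization, 23 after centring, 236 with trend and robust moderation, 0 with array spread, and 0 (without Math1-Cre 1) to 1288 (without no-Cre 4); the count was 402 without DKO 5, 80 without DKO 2, 39 without no-Cre 1, 32 without DKO 4, 17 without DKO 1 and 4 or fewer without each of the others. With the replicate block, although the numbers do not pair the libraries (3 of 15 were most like their own number), these counts were 6 and 0, and no member was called. With 11 libraries, the 239 genes in DKO minus no-Cre ranged from 80 (without DKO 4) to 1060 (without no-Cre 4), with 131, 135 and 108 without no-Cre 5, 1 and 2, and were 147 with array spread; the 120 in DKO minus Math1-Cre ranged from 44 (without DKO 4) to 446 (without no-Cre 4), with 53, 47 and 76 without Math1-Cre 3, 4 and 5 and 74 without no-Cre 2, and were 60 with array spread. The 1 member separated by the Gsk3a row became 0 after centring. The members lay above the array medians in every library.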
